A study of Homo sapiens with 9 samples.

Results

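The metallothioneins described here are the 7 genes MT1E, MT1F, MT1G, MT1L, MT1M, MT1X and MT2A. They were taken by symbol from the deposited table of RNA-seq counts, which holds 58884 genes, and all 7 were found there. Gene expression was compared between MDA-MB-231, a human breast cancer cell line of the claudin-low type (Par), and sub-populations that were selected from it in vivo, LM2 for metastasis to the lung and BrM2 for metastasis to the brain. All 3 lines were grown without a treatment as monolayers in DMEM with 10% FBS and antibiotics for 3 days, so the values are those of cultured cells outside the organ each sub-population is named for. Each line had 3 biological replicates, taken at different passages. LM2 and BrM2 are each represented by a single derived line. The comparisons ask whether the family differs between the parental and the metastatic cells and between the metastatic sub-populations.

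Metallothioneins are small, cysteine-rich proteins that bind zinc, copper and cadmium. Their genes are switched on by metals through the transcription factor MTF1, which binds metal response elements in their promoters, and they also respond to glucocorticoids and oxidative stress. MT2A is the isoform usually most abundant in human cells, while the MT1 genes encode several closely related isoforms.

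All 7 genes lie in a cluster at chr16:56565073-56684196 of GRCh38.p14, which spans 119.1 kb and holds 16 metallothionein genes and pseudogenes, 11 of them annotated as protein coding. MT2A lies at chr16:56608584-56609497, MT1L at chr16:56617461-56618818, MT1E at chr16:56625781-56627112, MT1M at chr16:56632659-56633981, MT1F at chr16:56657959-56659303, MT1G at chr16:56666730-56668065 and MT1X at chr16:56682470-56684196. MT1G is on the minus strand and the other members are on the plus strand. RefSeq annotates MT1L as a transcribed pseudogene and the other members as protein coding.

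The RefSeq promoter table (GRCh38.p14), which gives 250 bases before to 50 bases after each start site, held 2 of the 7 members. They are shown because they carry the element through which the family is known to respond to zinc. MT2A is the most abundant member and MT1X the member with the largest difference between BrM2 and LM2. Capitals mark each match to the core of the metal response element, TGCACNC or TGCGCNC, searched on both strands, and a match on the minus strand is seen here as its reverse complement. The MT2A window is chr16:56608334-56608633 and the MT1X window is chr16:56682220-56682519, both on the plus strand and written 5′ to 3′.
MT2A: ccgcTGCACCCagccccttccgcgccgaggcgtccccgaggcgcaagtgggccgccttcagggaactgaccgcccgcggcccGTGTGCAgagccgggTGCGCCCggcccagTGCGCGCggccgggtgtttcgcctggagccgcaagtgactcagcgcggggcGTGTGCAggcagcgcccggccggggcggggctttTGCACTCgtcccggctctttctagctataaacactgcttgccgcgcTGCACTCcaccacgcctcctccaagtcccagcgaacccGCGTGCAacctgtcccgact
MT1X: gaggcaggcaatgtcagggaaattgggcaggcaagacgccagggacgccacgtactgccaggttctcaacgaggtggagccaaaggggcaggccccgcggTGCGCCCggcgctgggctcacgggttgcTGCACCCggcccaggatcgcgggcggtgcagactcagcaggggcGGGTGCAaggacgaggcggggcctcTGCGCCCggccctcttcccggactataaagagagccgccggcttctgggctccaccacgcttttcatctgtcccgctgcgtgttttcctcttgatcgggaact
The MT2A window held 8 matches, 5 on the plus and 3 on the minus strand, and the MT1X window held 4, 3 on the plus and 1 on the minus strand. Of all 35116 promoters in the table, 29.6% held at least 1 match, and 7 promoters (0.02%), MT2A among them, held at least 8. The related gene MT1H also held 8, and it was listed at 0 counts in every library. The letters TATAAA, read on both strands and found in 11.5% of all promoters, began 29 bases before the MT2A start and 30 bases before the MT1X start. These matches describe the sequence alone, and binding was not measured in these files.

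The total of counts per library was 19878879 to 23948742 in Par, 23581487 to 24511786 in LM2 and 14371858 to 22055215 in BrM2. Levels are given as CPM, counts scaled to the library size after TMM normalization, and 3 counts, the floor used here for a single library, correspond to 0.115 to 0.221 CPM. The expected markers of the line KRT7, KRT8, KRT18, KRT19, VIM, CD44, FN1, ZEB1 and EGFR were expressed in all 9 libraries. Of 7 genes listed as low in a claudin-low, triple-negative line, ESR1, PGR and CLDN3 stayed under 1 CPM in every library. CDH1 was at 0.144 to 1.94 CPM, the highest in Par replicate 1. The other 3 passed the filter, CLDN4, ERBB2 (62.7 to 143 CPM) and EPCAM (2.73 to 7.94 CPM). The claudin CLDN4 averaged 95.4 CPM in Par, 5.84 in LM2 and 20 in BrM2, and its relation to the metallothionein values was not tested. Of 8 markers of other cell types, 2 passed the filter on low counts, PECAM1 at 2.08 to 7.20 CPM and GFAP at 5.52 to 21.2 CPM, and TYROBP was at 0 in all libraries. Genes on the opposite strand, CCDC103 and FAM187A, overlap 40.6% of the bases of the canonical GFAP transcript. How reads in that overlap were assigned was not tested.

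MT2A was by far the most abundant member and made up 74.9 to 85.7% of the counts of the family in each library. Its level was 312, 333 and 185 CPM in Par replicates 1, 2 and 3. In LM2 it was 672, 279 and 237 CPM, and in BrM2 it was 382, 111 and 218 CPM. The highest value was in LM2 replicate 1 and the lowest in BrM2 replicate 2, and the libraries of the 3 lines overlapped. MT2A averaged 277 ± 80.3 CPM (SD, n = 3) in Par, 396 ± 240 CPM in LM2 and 237 ± 136 CPM in BrM2. The 7 members together took 0.0151 to 0.0662% of all counts, with a summed level of 355 ± 93.8 CPM in Par, 476 ± 268 CPM in LM2 and 292 ± 160 CPM in BrM2. In these bulk samples, fewer cells with a transcript and less of it per cell cannot be told apart.

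MT1E was the most abundant MT1 gene. It measured 81.5, 79.2 and 58.1 CPM in the Par replicates. In LM2 it was at 99.96, 66.7 and 50.6 CPM, and in BrM2 at 76.3, 32.9 and 44.6 CPM. BrM2 replicate 2 was again the lowest library, and BrM2 replicate 1 lay among the Par values.

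MT1F and MT1X were detected in every library but at a low level. MT1F had 3.78, 2.86 and 2.44 CPM in Par, 7.59, 3.88 and 3.49 CPM in LM2 and 4.42, 1.81 and 2.25 CPM in BrM2. All LM2 values of MT1F but that of replicate 3 were above the Par range. MT1X had 3.36, 1.07 and 1.30 CPM in Par, 4.67, 1.88 and 2.30 CPM in LM2 and 1.70, 1.37 and 0.623 CPM in BrM2. The LM2 and BrM2 libraries did not overlap for MT1X, LM2 being the higher. The MT1X counts behind these levels were between 13 and 94 per library.

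**Figure D1:**
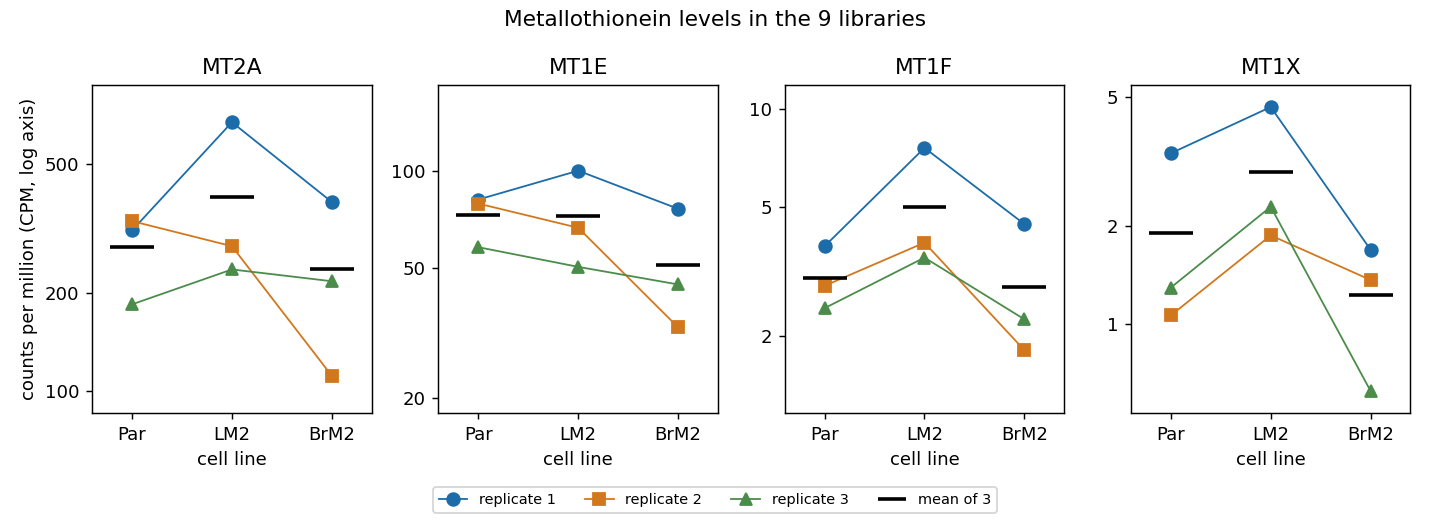
CPM on a log axis for MT2A, MT1E, MT1F and MT1X in the 3 lines, 1 point per library, lines joining libraries of the same replicate number and black bars at the mean of 3. Replicate 1 of LM2 is the highest library for each of the 4 genes (672 CPM for MT2A), and each BrM2 point lies under the LM2 point of the same replicate number.

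MT1G, MT1L and MT1M did not pass the filter on low counts, so 4 of the 7 members were tested. MT1G had 0 counts in all 9 libraries, which allows a level of up to 0.221 CPM in the shallowest of them. MT1L had 1 count in LM2 replicate 1 and 1 each in BrM2 replicates 1 and 2, and 0 elsewhere. MT1M had 2, 5 and 4 counts in Par, 0 in each LM2 library and 0, 0 and 1 in BrM2. The sparse counts of MT1M therefore came almost entirely from Par. The mean level of MT1M in Par was 1.31 times the floor of 3 counts in LM2, a figure without an error for the Par counts. For the 11 counts in Par against 0 in LM2, the exact 95% interval of the ratio of Par to LM2 began at 2.73. The 11 counts in Par against 1 in BrM2 gave a ratio of Par to BrM2 of 9.64 (exact 95% interval 1.40 to 415). Both are adjusted for library size, and the intervals cover counting error only. In edgeR's quasi-likelihood test without a filter on low counts, the adjusted p of MT1M against Par was 0.082 for LM2 and 0.29 for BrM2.

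Per kilobase of canonical transcript, the order of levels was MT2A, MT1E, MT1F and MT1X in all 3 lines. MT2A stood at 690 ± 200 CPM per kb in Par, 987 ± 598 in LM2 and 591 ± 340 in BrM2 (SD, n = 3). MT1E stood at 97.7 ± 17.3, 97.1 ± 33.8 and 68.8 ± 30.1 CPM per kb in the same order. MT1F stood at 7.12 ± 1.62, 11.7 ± 5.33 and 6.66 ± 3.29 CPM per kb, and MT1X at 4.72 ± 3.13, 7.30 ± 3.72 and 3.04 ± 1.36. The difference between these genes, which were measured in the same libraries, was not tested. MT1A, a member of the cluster outside the 7 described here, was in the same range with 5.52 ± 2.34 CPM per kb in Par. Of the other 13 metallothionein genes and pseudogenes in the table, MT1A was the only one to pass the filter.

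Reads of this family could be shared between its genes. Of the 50-base stretches of the canonical transcript, 11.1% in MT2A, 10.3% in MT1E and 6.1% in MT1F also occur in another gene. For MT1X the share was 51.0%, and a long non-coding RNA on the same strand, listed at 0 counts in all 9 libraries, overlaps 40.8% of the bases of its canonical transcript. The level of MT1X is thus uncertain, and the whole canonical transcript of MT1L lies in shared stretches.

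**Figure D2:**
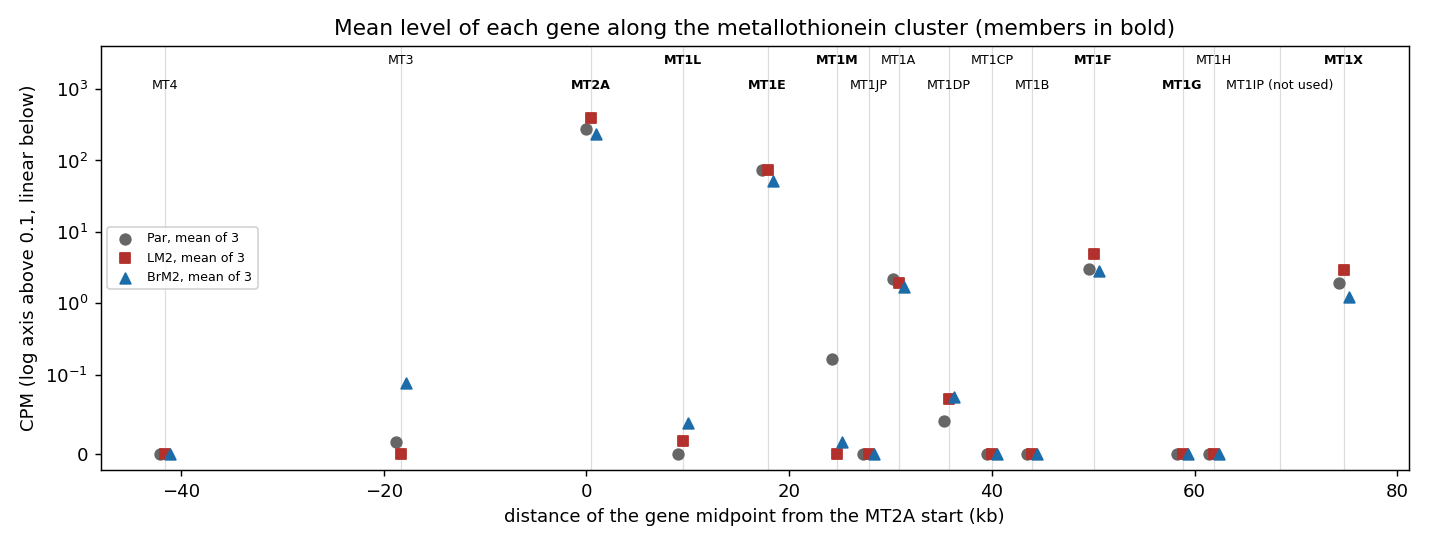
Mean CPM of each metallothionein gene (3 libraries per line) against its distance from the MT2A start in kb, with the 7 members in bold and the vertical axis logarithmic above 0.1 and linear below. MT2A and MT1E stand far above the rest (277 and 72.9 CPM in Par), MT1F, MT1X and MT1A lie between 1.23 and 4.99 CPM, and the others are at or near 0.

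The LM2 cells were compared with Par first. The test was the quasi-likelihood test of edgeR over all 9 libraries, with Benjamini-Hochberg (BH) adjusted p and a threshold of 0.05. No member passed in LM2 vs Par, and 0 had an unadjusted p under 0.05, in edgeR and in DESeq2 alike. Of all 13018 genes tested, 8.67% passed. The log2 fold change was 0.52 for MT2A (95% interval -0.65 to 1.69), 0.72 for MT1F (-0.24 to 1.67) and 0.63 for MT1X (-0.62 to 1.88). These intervals include both no difference and rises of over 1 on the log2 scale. MT1E stood at -0.01 (-0.81 to 0.79), and its sign turned under 14 of 29 alternatives, the scaling among them. The median over the 4 members was 0.57, beside 0.01 over all genes tested.

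The MT2A difference between LM2 and Par rested mainly on replicate 1. The log2 ratio of MT2A in LM2 to the Par library of the same number was 1.11 in replicate 1, -0.26 in replicate 2 and 0.36 in replicate 3. Without LM2 replicate 1, the fitted log2 fold change of MT2A was -0.10, in a fit that kept Par replicate 1. With the replicate number also in the model, the same omission gave 0.15. Without replicate 1 of all lines, and without the replicate number, the value was -0.0058. MT1F and MT1X, in contrast to MT2A, were higher in LM2 in all 3 pairs of the same replicate number. The share of all genes for which this held was not computed. In BrM2 vs LM2, 34.7% of all genes were lower in all 3 pairs.

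MT1F was the member called in LM2 vs Par once the replicate number entered the model as a block. Same-numbered libraries of the 3 lines deviated alike from their line means, so this block was fitted as well. A shift of replicate 1 enters this likeness, and replicates 2 and 3 were not shown to be paired on their own. The log2 fold change of MT1F was then 0.66 (SE 0.21, edgeR adjusted p = 0.033), and it was the only member of 4 past the threshold. The block raised the share of all genes called to 34.5%, and to 15.5% for those higher in LM2. The call for MT1F was lost without Par replicate 1 (0.47, adjusted p = 0.14 from edgeR), Par replicate 3 (0.68, 0.098) or LM2 replicates 1, 2 or 3 (0.58, 0.65 and 0.74, with adjusted p of 0.13, 0.12 and 0.063), and without replicate 1 of all lines (0.48, 0.20).

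In BrM2 vs Par, no member passed without the block either, against 13.2% of all genes tested. None of the 4 had an unadjusted p under 0.05 in edgeR or in DESeq2. The log2 fold change was -0.22 for MT2A (95% interval -1.39 to 0.94), -0.51 for MT1E (-1.32 to 0.30), -0.11 for MT1F (-1.09 to 0.86) and -0.64 for MT1X (-1.96 to 0.67). The median of the 4 was -0.37, beside -0.02 over all genes. Both comparisons with Par use the same Par libraries.

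MT1E fell in BrM2 relative to Par with the replicate block, by 0.57 on the log2 scale (SE 0.19, edgeR adjusted p = 0.036). It was lower in BrM2 in all 3 pairs, with log2 ratios of -0.09, -1.26 and -0.38, so that replicate 2 carried most of it. The share of all genes lower than Par in all 3 pairs was not computed. With the block, 42.7% of all genes passed and 23.2% were lower in BrM2, beside this 1 member of 4. The MT1E call was lost without Par replicate 2 (-0.36, adjusted p = 0.11 from edgeR), Par replicate 3 (-0.59, 0.10), LM2 replicates 1 or 2 (-0.56 and -0.58, 0.068 and 0.054) or BrM2 replicate 2 (-0.30, 0.12), and was kept without replicate 1 of all lines (-0.79, 0.043). MT2A showed no common direction, with log2 ratios of 0.29, -1.58 and 0.24 in the 3 pairs.

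The metastatic sub-populations were then compared directly. All 4 tested members were lower in BrM2 than in LM2 in 3 of 3 pairs of the same replicate number, as were 34.7% of all genes tested. The log2 fold changes without the block were -0.74 for MT2A (95% interval -1.91 to 0.43), -0.50 for MT1E (-1.31 to 0.31), -0.83 for MT1F (-1.80 to 0.13) and -1.27 for MT1X (-2.57 to 0.03). No member passed (edgeR, lowest adjusted p = 0.25, none with an unadjusted p under 0.05), while 8.1% of all genes did. DESeq2 likewise called 0, with 1 member at an unadjusted p under 0.05. For MT1X every BrM2 library was below every LM2 library, which held for 11.7% of all genes. The median of the 4 members was -0.79, beside -0.03 over all genes.

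**Figure D3:**
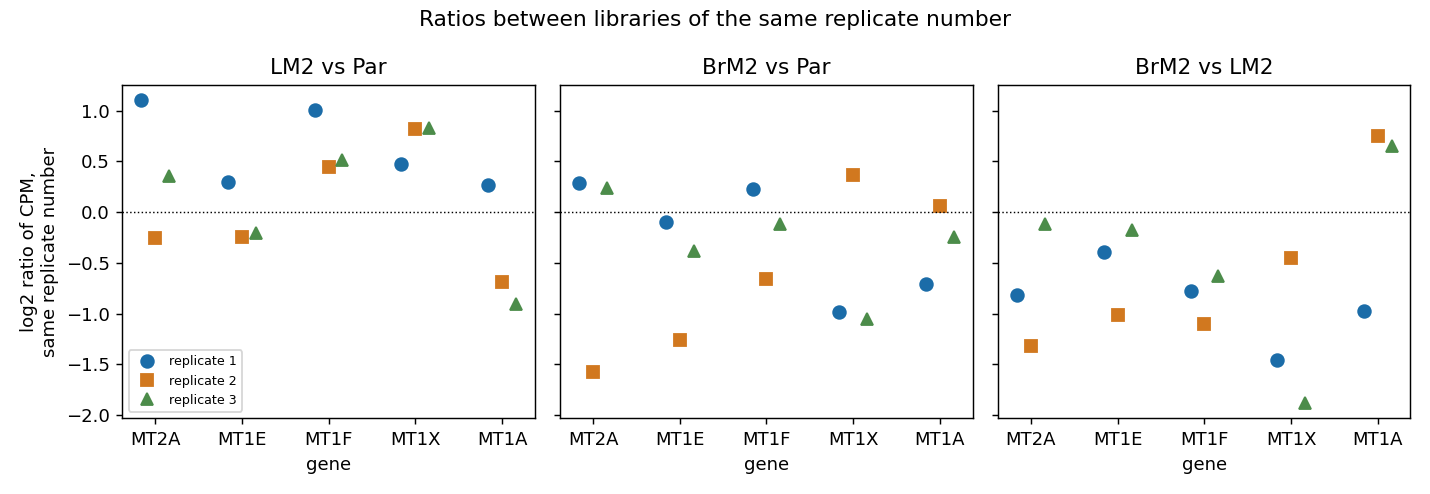
Log2 ratio of CPM between libraries of the same replicate number for the 4 tested members and MT1A, 1 point per replicate, in the 3 comparisons. In BrM2 vs LM2 all points of the 4 members lie under 0, from -0.12 to -1.88, while MT1A has 2 of its 3 points above 0.

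With the replicate block, MT1F and MT1X passed in BrM2 vs LM2. MT1F fell by 0.83 on the log2 scale (SE 0.22, edgeR adjusted p = 0.012) and MT1X by 1.20 (SE 0.31, edgeR adjusted p = 0.012). The values of MT2A and MT1E were -0.70 (SE 0.30, edgeR adjusted p = 0.092) and -0.51 (SE 0.19, edgeR adjusted p = 0.061). In this model 2 of 4 members were called. All 4 had an unadjusted p under 0.05 in edgeR, for which the share over all genes was not computed. Among all genes, 37.5% were called with the block and 19.7% were lower in BrM2. The MT1F call was lost without LM2 replicate 1 (-0.74, adjusted p = 0.065 from edgeR) or LM2 replicate 2 (-0.83, 0.056). That of MT1X was lost without LM2 replicate 1 (-1.21, adjusted p = 0.051 from edgeR), LM2 replicate 3 (-1.04, 0.056), BrM2 replicate 1 (-1.01, 0.078) or BrM2 replicate 3 (-0.97, 0.069). Both were lost without replicate 1 of all lines, with -0.84 for MT1F and -1.05 for MT1X (edgeR adjusted p = 0.057 and 0.11).

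**Figure D4:**
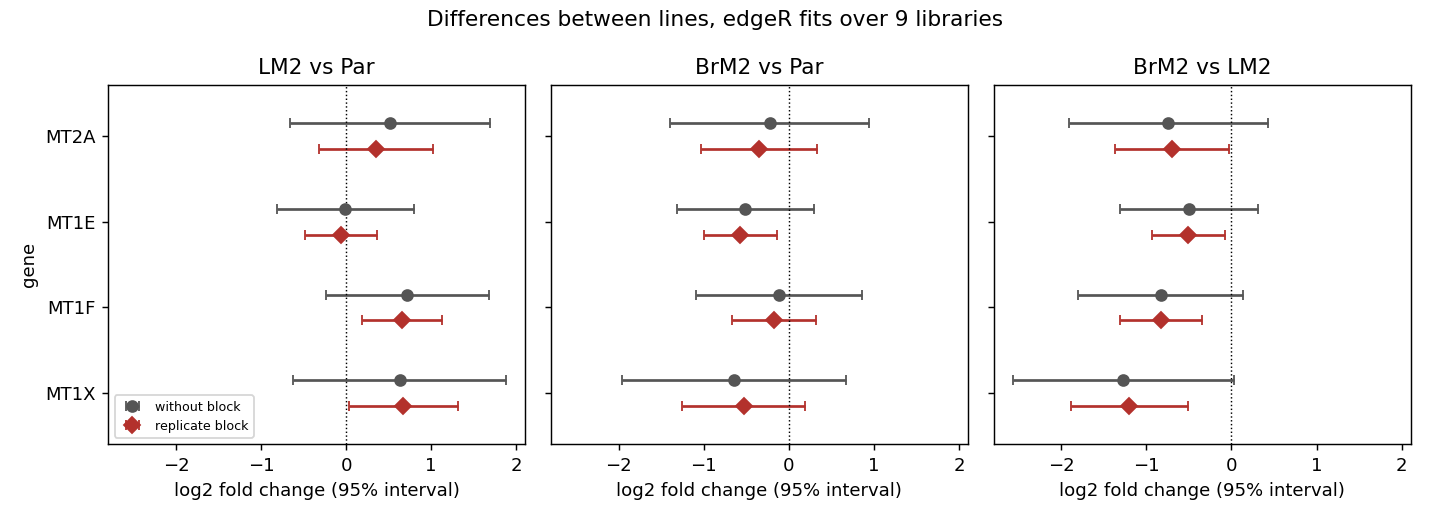
Log2 fold change of the 4 tested members in the 3 comparisons, with 95% intervals, from edgeR without the replicate block (grey circles) and with it (red diamonds). Without the block all 12 intervals include 0, the closest being MT1X in BrM2 vs LM2 (-2.57 to 0.03), and with it all 4 intervals in BrM2 vs LM2 lie under 0. The share of all genes with such an interval was not computed.

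Replicate 1 stood apart from replicates 2 and 3, a split that was chosen after the data were seen. In the model with line and replicate number it was higher than the other two by 0.98 on the log2 scale for MT2A, 0.67 for MT1E, 0.90 for MT1F and 1.17 for MT1X. The adjusted p of these differences were 0.0051, 0.0035, 0.0012 and 0.0018 (edgeR). Across all genes, 72.6% differed in this way and 35.9% were higher in replicate 1. MT1A, outside the 7 members, was also higher in replicate 1, by 1.18. The GC content of the canonical transcripts was 55.6% in MT2A, 53.2% in MT1E, 52.9% in MT1F and 49.3% in MT1X, and the median of 12902 tested genes was 47.9%. The part of GC content in the difference between replicates was not tested for these genes.

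The tested members varied together over the 9 libraries, which share the replicate structure above. The Pearson correlation of log2 CPM with MT2A was 0.925 for MT1F, 0.922 for MT1E and 0.582 for MT1X, and 39, 49 and 2607 of 13017 other genes correlated more closely with MT2A than these did. MT1X thus followed MT2A less closely than the other members. Outside the family, the 5 genes most like MT2A were MESP1 (0.976), KCNN4 (0.972), RPL7AP30 (0.966), PMPCA (0.960) and CYFIP1 (0.958). For MT1E they were EEF2 (0.986), WDR34 (0.983), PLIN3 (0.983), ANAPC2 (0.982) and CCDC22 (0.980).

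The genes of metal handling around the family were described next, in lists chosen with earlier results of these data known. Relative to Par, LM2 was higher for 4.16% of all genes tested and lower for 4.51%, and BrM2 was higher for 6.24% and lower for 7%. When the replicate block was fitted, 15.5% were higher and 19% lower in LM2, and 19.5% were higher and 23.2% lower in BrM2. MTF1, the zinc-sensing activator of metallothionein genes, was at 28.7, 28.3 and 33.3 CPM in Par, 24.2, 28.3 and 39.3 CPM in LM2 and 26.5, 34.6 and 37.3 CPM in BrM2. Its libraries overlapped between all lines, and its log2 fold change was 0.03 in LM2 and 0.12 in BrM2 relative to Par (SE 0.23 for both, edgeR adjusted p = 0.98 and 0.83). SLC30A1, a zinc exporter of the plasma membrane that is itself an MTF1 target, was at 46.3, 59.6 and 65.3 CPM in Par, 30.1, 53.2 and 49.9 CPM in LM2 and 23.8, 38.7 and 32.1 CPM in BrM2. All BrM2 libraries were below all Par libraries for SLC30A1. For this gene and those below, the share of all genes without overlap with Par was not computed. In BrM2 vs LM2, every BrM2 library was below every LM2 library for 11.7% of all genes. SLC30A1 gave -0.36 in LM2 and -0.85 in BrM2 without the block (SE 0.28 for both, edgeR adjusted p = 0.58 and 0.087). With the replicate block it passed in both, at -0.39 in LM2 and -0.87 in BrM2 (edgeR adjusted p = 0.038 and 0.00038).

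Of the 9 tested genes of the zinc sensing and export list, 1 fell in LM2 and in BrM2 and none rose, where 4.51% and 7% of all genes fell. This was SLC30A10, a member of the zinc transporter family that is known mainly as a manganese exporter. It had 60, 71 and 122 counts in Par, 12, 26 and 26 in LM2, and 2, 0 and 0 in BrM2. The 3 lines did not overlap, and the BrM2 libraries were at or under the floor. SLC30A10 passed the filter on low counts only through its Par libraries, so it entered the test only as a gene high in Par. Its log2 fold change in LM2 was -2.09 (SE 0.48, edgeR adjusted p = 0.029). In BrM2 it passed with an adjusted p of 0.00064 in edgeR. The ratio of Par to BrM2 counts, adjusted for library size, was 111 (exact 95% interval 30.4 to 920, for counting error only). Over the list, the median log2 fold change was -0.02 in LM2 and -0.01 in BrM2. With the block, 2 genes of the list were lower in LM2 (19% of all genes), and 1 was higher and 3 lower in BrM2 (19.5% and 23.2% of all genes).

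Among 10 tested zinc importers of the SLC39 family, none passed in LM2 and 1 rose in BrM2, where 6.24% of all genes rose. SLC39A14, which carries zinc, manganese and iron into cells, was at 141, 120 and 123 CPM in Par, 166, 143 and 163 CPM in LM2 and 188, 213 and 222 CPM in BrM2. The lines were ordered without overlap. It rose in BrM2 by 0.70 on the log2 scale (SE 0.16, edgeR adjusted p = 0.020), beside a value of 0.30 in LM2 (SE 0.16, edgeR adjusted p = 0.36). The list had a median of -0.10 in LM2 and -0.16 in BrM2, and with the block 1 importer was higher and 3 lower in LM2 (15.5% and 19% of all genes), and 2 higher and 4 lower in BrM2 (19.5% and 23.2%).

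Of 10 tested genes of copper handling, 3 fell in LM2 and 1 in BrM2, and none rose, beside 4.51% and 7% of all genes that fell. CCS, the chaperone that delivers copper to SOD1, was at 27.5, 24.9 and 19.6 CPM in Par, 11.9, 9.06 and 8.74 CPM in LM2 and 15.9, 7.73 and 9.83 CPM in BrM2. Every library of LM2 and of BrM2 was below every Par library, and the share of all genes for which this held was not computed. CCS fell in both, with log2 fold changes of -1.28 in LM2 and -1.11 in BrM2 (SE 0.30 for both, edgeR adjusted p = 0.031 and 0.041). SOD1 itself, the copper and zinc superoxide dismutase, fell by 0.70 in LM2 (SE 0.16, edgeR adjusted p = 0.032) and gave -0.37 in BrM2 (adjusted p = 0.20). ATP7B, a copper-exporting ATPase, fell by 1.06 in LM2 (SE 0.23, edgeR adjusted p = 0.021) and gave 0.50 in BrM2 (adjusted p = 0.20). Copper genes as a list had a median of -0.05 in LM2 and -0.16 in BrM2, and with the block 4 genes were lower in each line (19% of all genes in LM2 and 23.2% in BrM2) and 3 were higher in BrM2 (19.5%).

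**Figure D5:**
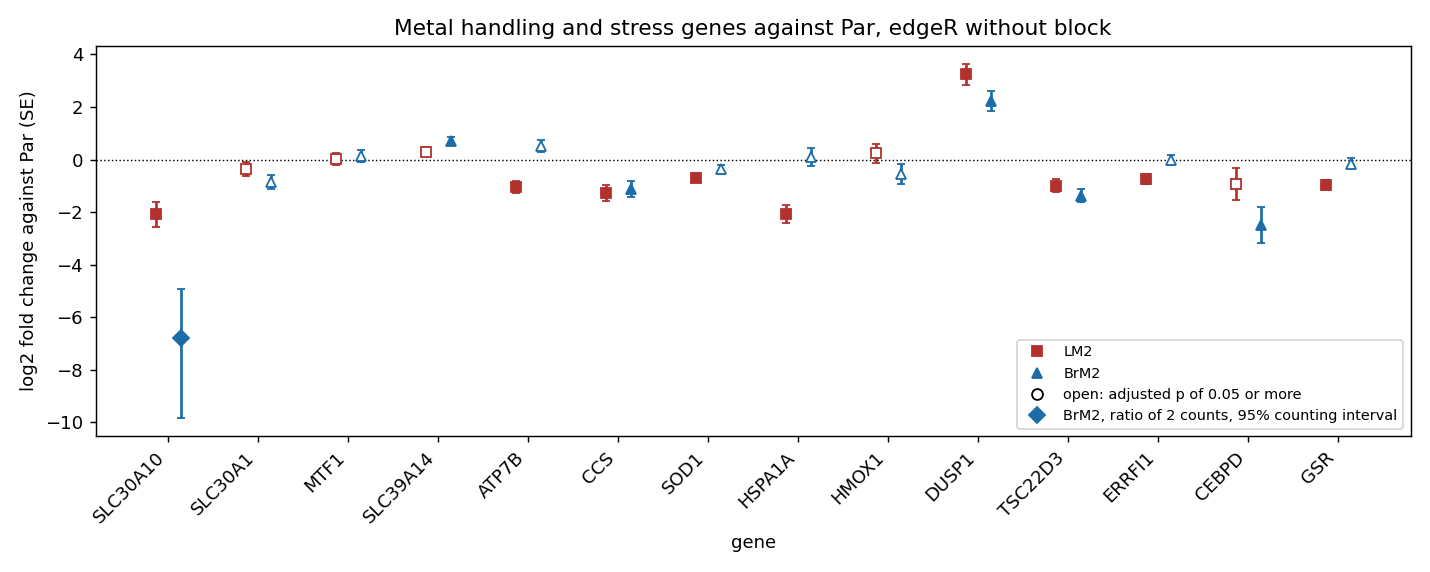
Log2 fold change against Par in LM2 (red squares) and BrM2 (blue triangles) for the named genes of metal handling and stress, with standard errors, from edgeR without the block, filled where the adjusted p is under 0.05. SLC30A10 in BrM2 (diamond) is the ratio of counts, adjusted for library size, with its exact 95% interval, since 2 counts were found there. DUSP1 is the gene that rose in both lines (3.23 and 2.23).

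Of 10 tested genes of heat and heavy metal stress, 1 fell in LM2, beside 4.51% of all genes, and none passed in BrM2, beside 13.2% called in all. HSPA1A, an inducible HSP70 chaperone, was at 16.8, 22 and 24.2 CPM in Par, 6.30, 4.49 and 4.22 CPM in LM2 and 23.4, 12.6 and 31.3 CPM in BrM2. LM2 stood apart from both other lines. HSPA1A fell by 2.07 in LM2 on the log2 scale (SE 0.35, edgeR adjusted p = 0.0070), but 75.1% of its 50-base stretches also occur in HSPA1B, so reads could be split between the pair. HSPA1B gave -0.73 in LM2 (SE 0.31, edgeR adjusted p = 0.22), and -0.77 with the block (edgeR adjusted p = 0.010). The change of the pair as a whole was not tested. HMOX1, the haem oxygenase induced by cadmium and oxidative stress, gave 0.24 in LM2 and -0.56 in BrM2 (SE 0.37 for both, edgeR adjusted p = 0.83 and 0.43). Over these 10 genes the median was 0.17 in LM2 and 0.40 in BrM2. The block moved the counts to 3 higher and 3 lower in LM2 (15.5% and 19% of all genes), and 4 higher in BrM2 (19.5%).

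Of 8 tested glucocorticoid-responsive genes, 1 was higher and 2 were lower in each line, where 8.67% of all genes in LM2 and 13.2% in BrM2 were called. DUSP1, a phosphatase of MAP kinases, was at 27.1, 20.3 and 21.1 CPM in Par, 343, 169 and 133 CPM in LM2 and 150, 81.6 and 88.9 CPM in BrM2. It was above Par in every library of both sub-populations, by 3.23 in LM2 and 2.23 in BrM2 on the log2 scale (SE 0.41 and 0.40, edgeR adjusted p = 0.0016 and 0.0062). TSC22D3, which encodes the leucine zipper protein GILZ, fell in LM2 and BrM2, with log2 fold changes of -0.99 and -1.37 (SE 0.26 for both, edgeR adjusted p = 0.047 and 0.0086). ERRFI1, a feedback inhibitor of EGFR, fell in LM2 (log2 fold change -0.74, edgeR adjusted p = 0.043). CEBPD, a transcription factor, fell in BrM2 (-2.49, edgeR adjusted p = 0.045), where it had 15, 4 and 6 counts, near the floor of 3. The 8 genes had a median of -0.29 in LM2 and -0.14 in BrM2. With the block, 3 were higher and 4 lower in LM2, and 2 higher and 2 lower in BrM2. Of all genes, the block called 34.5% in LM2 and 42.7% in BrM2. PER1, also on this list, was not analysed here.

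Of 11 tested genes of glutathione and thioredoxin metabolism, the thiol systems that share reducing equivalents and metals with metallothioneins, 1 fell in LM2, beside 4.51% of all genes, and none passed in BrM2. GSR, glutathione reductase, was at 71.4, 58.3 and 59.1 CPM in Par, 40.6, 27.6 and 28.6 CPM in LM2 and 56.4, 55.6 and 57.4 CPM in BrM2. It fell by 0.96 in LM2 on the log2 scale (SE 0.20, edgeR adjusted p = 0.020). Their median was 0.02 in LM2 and -0.16 in BrM2, with 2 higher and 2 lower in LM2 and 3 higher and 1 lower in BrM2 in the blocked model, which called 34.5% and 42.7% of all genes.

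The genes on either side of the cluster on 16q were read as well. Of 17 tested, 1 fell in LM2 and 3 fell in BrM2, beside 4.51% and 7% of all genes, and none rose. CX3CL1, a membrane-bound chemokine, fell in both, with log2 fold changes of -3.46 in LM2 and -5.20 in BrM2 (SE 0.40 and 0.47, edgeR adjusted p = 0.0010 and 0.00022). It had 321, 198 and 184 counts in Par but 4, 5 and 8 in BrM2, near the floor of 3, so the size of that fall is uncertain. CX3CL1 passed the filter on low counts only through its Par libraries, so it entered the test only as a gene high in Par. GNAO1, a G protein alpha subunit, and NLRC5, a regulator of MHC class I genes, fell in BrM2, with log2 fold changes of -2.05 and -1.23 (edgeR adjusted p = 0.0053 and 0.030). The median of the region was -0.05 in LM2 and 0.23 in BrM2, with 3 higher and 4 lower in LM2 and 6 higher and 4 lower in BrM2 when the block was fitted, beside 34.5% and 42.7% of all genes called.

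For the named genes of these lists, the calls for CX3CL1 and DUSP1 in both lines, HSPA1A in LM2, and GNAO1 and SLC30A10 in BrM2 held in all 9 fits without the block that left out a single library. TSC22D3 in BrM2 lost its call without BrM2 replicate 2 (-1.26, edgeR adjusted p = 0.053). The others were kept in 5 of 9 such fits (ATP7B in LM2, SLC39A14 in BrM2), 4 (SLC30A10 in LM2, NLRC5), 3 (CCS and GSR in LM2), 2 (CCS and CEBPD in BrM2, SOD1 and TSC22D3 in LM2) or 1 (ERRFI1), and their highest adjusted p lay between 0.096 and 0.18. With the replicate block, each of these calls held in all 9 fits. Of the blocked calls of SLC30A1, the one in BrM2 held in 9 of 9 and the one in LM2 in 2 of 9.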

How the data were processed

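RNA was isolated from 3 lines with 3 replicates each, and stranded mRNA libraries were sequenced as paired ends. Per the submitters' processing notes and the methods, CASAVA 1.8.2, STAR 2.7.0 and hg38 were used. The deposited values are raw counts per gene, which the authors obtained with STAR on GENCODE transcripts and did not normalize. The strand that was counted is not given in the sources used here. A second deposited table holds the authors' DESeq2 fold changes and p-values and was not used.

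Of 58887 rows, 3 repeated an identifier with identical counts and were kept once. A filter written after HTSFilter kept 13018 genes with a largest normalized count above 47.1. Lines were compared with edgeR 4.0.16 (TMM, quasi-likelihood, 2-sided, all 9 libraries, R 4.3.3), with Benjamini-Hochberg adjustment and a threshold of 0.05. Alternatives were DESeq2 1.42.0, other scalings and filters, a replicate block, and fits on fewer libraries. The fits were tested on simulated data. Deviations from the line means correlated between same-numbered libraries by 0.228 to 0.899 in all 9 pairs, so replicate numbers were taken as pairing the libraries. The shift of replicate 1 enters all these correlations, and libraries of different numbers were not compared, so a pairing of replicates 2 and 3 was not shown. Without replicate 1, genes called in LM2 vs Par, BrM2 vs Par and BrM2 vs LM2 numbered 4302, 5254 and 4244. The block lowered these numbers to 3639, 4796 and 3724. This pairing comes from the values and not from the labels. P-values measure the spread between passages of single lines.

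CPM are counts scaled by TMM-adjusted library size, and correlations used log2 CPM with a prior count of 2. Totals were 14371858 to 24511786 counts. Intervals on counts cover counting error only. Positions and promoters came from RefSeq tables (GRCh38.p14), and transcript lengths, GC content, exon overlaps and shared stretches of 50 bases from a GENCODE annotation on another build, GRCh37, whose coordinates are not given. Figures were drawn with matplotlib 3.10.9.

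The members and lists were chosen with earlier results of these data known. Named genes are all 7 members, up to 6 genes of each other list past the threshold against Par, MTF1, SLC30A1 and HMOX1, and the 5 genes most correlated with MT2A and with MT1E. Genes named beside a difference between BrM2 and LM2 alone were chosen after their values were seen. HSPA1B is given because it shares stretches with HSPA1A.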

Additional observations from a re-analysis of the deposited data

Results flagged for a closer look

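The difference between BrM2 and LM2 is the test of whether the effects of the sub-populations against Par differ, and these results passed it in the model given with each. With the replicate block, MT1F gave -0.83 on the log2 scale (SE 0.22, edgeR adjusted p = 0.012) and MT1X gave -1.20 (SE 0.31, edgeR adjusted p = 0.012), both lower in BrM2. This model called 37.5% of all genes and 19.7% as lower in BrM2. Neither gene passed without the block (edgeR adjusted p = 0.32 for MT1F and 0.25 for MT1X).

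Without the block, and in edgeR, the manganese exporter SLC30A10 was lower in BrM2 than in LM2 (adjusted p = 0.010). Its ratio of LM2 to BrM2 counts, adjusted for library size, was 25.8 (exact 95% interval 6.86 to 218, for counting error only). SLC31A1, the copper importer, gave -0.75 (adjusted p = 0.016) and ATP7B, the copper-exporting ATPase, 1.56 (adjusted p = 0.0035). HSPA1A stood at 2.16 (adjusted p = 0.0062), and HSPA1B, with which it could share reads, at 1.11 (adjusted p = 0.066). ERRFI1 gave 0.72 (adjusted p = 0.048), GSR 0.81 (adjusted p = 0.043) and TXN, thioredoxin, -0.70 (adjusted p = 0.037). Of the 16q neighbours, GNAO1 gave -1.90 (adjusted p = 0.011) and PLLP, a myelin membrane protein, 2.48 (adjusted p = 0.0072). PLLP shares 19.9% of the exon bases of all its annotated transcripts with ARL2BP on the opposite strand. None of the bases of its canonical transcript overlap, but ARL2BP was listed at 0 or 1 counts in every library, and how reads in the overlap were assigned was not tested. Of the 9 fits that left out a single library, ERRFI1 passed in 0 (0.63 to 0.81), GSR in 1 (0.71 to 1.01) and TXN in 2 (-0.79 to -0.63). SLC31A1 passed in 5, and lost its call without replicate 2 or 3 of LM2 or of BrM2 (-0.79 to -0.73 over all 9). GNAO1 passed in 7, and lost its call without BrM2 replicates 2 or 3 (highest adjusted p = 0.062, edgeR), and SLC30A10 in 8, lost without BrM2 replicate 3 (adjusted p = 0.050, edgeR). ATP7B, HSPA1A and PLLP passed in all 9. With the block, MT1F passed in 7 and MT1X in 5 of the 9 fits that left out a single library. Both calls were lost without replicate 1 of all lines (edgeR adjusted p = 0.057 and 0.11). SLC31A1, TXN and PLLP were named after their values were seen.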

How the results depend on the processing

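Over 29 alternatives, 10 of them added after seeing the data (the replicate block with a library or replicate 1 left out), the number of members called was 0 in all planned ones but the block and the fit without replicate 1. With the replicate block it was 1 for LM2 and 1 for BrM2 against Par, and 2 in BrM2 vs LM2. With libraries left out and no block it was at most 0, 1 and 1 in that order, and with libraries left out and the block together it ran from 0 to 2, 0 to 1 and 0 to 4. Of the 9 blocked fits without a single library, MT2A was called in 1 for LM2 vs Par, without Par replicate 2 (0.89, edgeR adjusted p = 0.0041). In BrM2 vs LM2 it was called in 2 of 9, without Par replicate 2 (-0.76, edgeR adjusted p = 0.0022) or BrM2 replicate 3 (-1.03, 0.038). The block turned no member's direction.

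Genes called in all numbered 1129 for LM2 and 1723 for BrM2 against Par, and 1055 in BrM2 vs LM2. With the replicate block they were 4491, 5557 and 4887, DESeq2 gave 1886 for LM2 against Par and 1817 between the sub-populations, and the 6 libraries compared alone gave 601 in BrM2 vs LM2. Leaving libraries out gave 70 to 4302, 154 to 5254 and 53 to 4244, and the block with libraries left out gave 2776 to 5445, 3792 to 5626 and 2895 to 5663.

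MT1E in LM2 vs Par, at -0.01, turned to 0.0296 with DESeq2 and with relative log expression factors, 0.0049 with upper-quartile factors, 0.0102 with edgeR's own filter and 0.0077 with no filter. With libraries left out, with or without the block, it ran from -0.31 to 0.19. The same range was -0.10 to 0.90 for MT2A in LM2 vs Par, -0.75 to 0.30 for MT2A, -0.57 to 0.14 for MT1F and -0.99 to 0.0331 for MT1X in BrM2 vs Par, -0.20 to 0.17 for MTF1 and -0.28 to 0.53 for HMOX1 in LM2 vs Par. The other members and comparisons kept their direction. The cause of these turns was not tested.

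MT1G, MT1L and MT1M had at most 5 counts per library, so they have bounds or wide counting intervals only, and MT1X had at most 94 counts. The cause of these low counts was not tested. How reads in stretches that MT1X shares with other genes were counted was not tested.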
